A study of Mus musculus with 6 samples.

Results

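The lysosomal cathepsins are the main proteases of the lysosome, and 9 of their genes are described here: Ctsa, Ctsb, Ctsc, Ctsd, Ctsh, Ctsk, Ctsl, Ctss and Ctsz. They were taken by name, with every probe that the array annotation assigns to them, and were chosen with earlier results of these data known. They had 18 of the 45281 probes on the array. Of these, 11 probes for 8 of the genes were detected on at least 3 of the 6 arrays and were tested, and Ctsc had no tested probe.

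RNA was measured on Illumina bead arrays in Sertoli cells, the somatic cells of the seminiferous tubule that nurse the germ cells. The cKO group (3 arrays) had the genotype Rb1 flox/-; Amh-Cre +, in which Cre made under the Amh promoter, active in Sertoli cells, acts on the floxed copy of the retinoblastoma gene. The Control group (3 arrays) had the genotype Rb1 flox/- without Cre. Mice of both groups were thus hemizygous for Rb1 before any recombination, were 6 weeks old, were of C57B6J/129SvEv strain and carried the Sox9-GFP label by which the cells were sorted. The comparison asks what loss of Rb1 does to Sertoli cell transcripts, and Cre was present in the cKO group alone. The labels do not give the number of animals behind an array, so the p-values measure the spread between arrays, which may be technical.

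Cathepsins are made as inactive proenzymes, carried to the lysosome by mannose 6-phosphate receptors and activated in its acid lumen. Most are cysteine proteases of the papain type, whereas Ctsd encodes an aspartic protease and Ctsa a serine carboxypeptidase. Sertoli cells engulf dying germ cells and the residual bodies shed by spermatids and digest them in lysosomes, and in the rat they also secrete procathepsin L in a stage-dependent way. Macrophages are rich in several of the same enzymes.

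The arrays held a median of 43 to 44 beads per probe and detected 43.0% to 53.5% of probes, and each cathepsin probe was read from 27 to 60 beads on an array. The arrays of cKO replicate 1 and Control replicate 3 stood apart, at -113.9 and 110.2 on a first principal component with 58.9% of the variance, while the other 4 arrays lay between -34.3 and 31.4. Both Rb1 probes averaged lower in cKO, by -1.22 ± 0.32 (SE) and -0.98 ± 0.34 on the log2 scale, without passing (adjusted p 0.399 and 0.668). Of 22 listed markers of mature Sertoli cells, 18 were tested and none of the 19 on the array went undetected. Germ cell transcripts were abundant too. The summed linear level of 7 tested spermatid markers was 87009 to 93696 in cKO and 69230 to 92205 in Control. For the 18 Sertoli markers it was 87828 to 101775 in cKO and 102586 to 115239 in Control.

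Of the 8 tested cathepsin genes, Ctsh, Ctsz, Ctsk and Ctsb were higher on every cKO array than on any Control array, and no cathepsin was lower on every cKO array. Among all 12277 genes tested, each read by its brightest tested probe, 9.56% were above and 4.33% below in this sense. No cathepsin probe passed an adjusted p of 0.05 in limma, a threshold that 0.195% of all genes passed as higher and 0% as lower (0.142% of 21805 probes as higher). At an unadjusted p under 0.05, Ctsh, Ctsk and Ctsz were higher and none was lower, against 5.96% and 1.81% of all genes. The median difference over the 8 genes was 0.76 on the log2 scale, beside 0.12 over all genes tested, and 6 of the 8 differences were positive, beside 61.3% of all genes.

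Ctsh encodes an aminopeptidase of the papain family, abundant in lung alveolar type II cells and macrophages, and it had the largest difference of the family. Its brighter probe, ILMN_2872058, read 10.13, 9.68 and 8.54 in cKO replicates 1 to 3, against 6.41, 7.01 and 5.79 in Control replicates 1 to 3, as normalised log2 intensity. The lowest cKO array lay 1.53 log2 units above the highest Control array, a gap close in size to the spread within cKO (1.59) and above the spread within Control (1.22). The scanner intensities before any normalisation showed the same separation, at 1203.0, 948.3 and 416.8 in cKO and 106.2, 133.0 and 104.2 in Control. The mean was 9.45 ± 0.82 in cKO and 6.41 ± 0.61 in Control (SD, n = 3 each), a difference of 3.04 ± 0.49 (SE), or 8.24-fold with a 95% confidence interval of 3.71 to 18.3, and an adjusted p of 0.101 in limma. By p it ranked 58 and by size of rise 26 among the 12277 genes.

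The other Ctsh probe, ILMN_2775154, gave 9.23, 8.49 and 7.23 in cKO against 4.96, 5.59 and 5.12 in Control. It was detected on 3 of 3 cKO arrays and on 2 of 3 Control arrays. Its difference was 3.09 ± 0.51 (SE; limma adjusted p 0.106), so the probes of this gene gave the same size of difference in the main fit. Without background correction the brighter probe gave 2.67 and the dimmer 2.39, and with the deposited log2 values 2.77 and 2.48. Subtracting same-numbered arrays gave 3.72, 2.66 and 2.75 for replicates 1, 2 and 3 at the brighter probe. Without cKO replicate 1 and Control replicate 3 together, the differences were 2.40 and 2.58, and the groups were still separate. Over 16 other ways of processing, the adjusted p of the brighter probe ran from 0.0176 to 0.522. It passed with 1 probe per gene (0.0485) and with array weights (0.0176), and the dimmer probe passed with array weights (0.0170) and without cKO replicate 3 (0.0482).

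**Figure D1:**
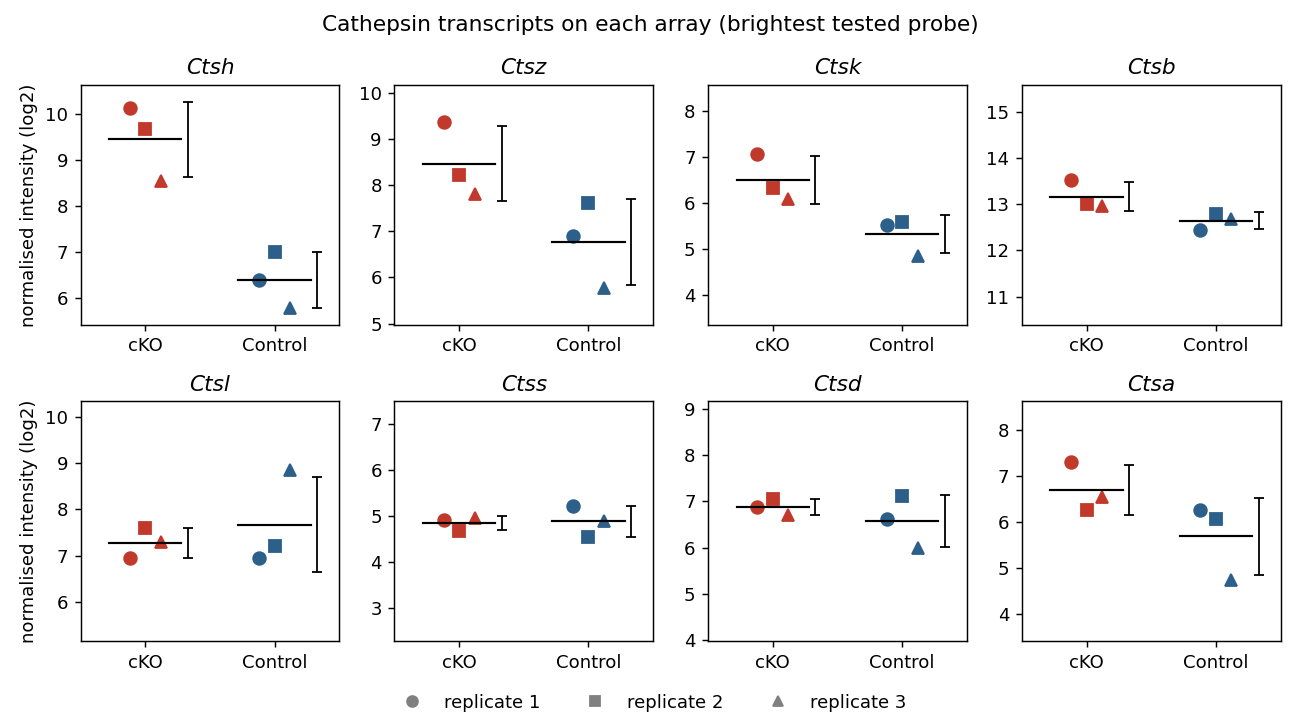
Normalised log2 intensity of the brightest tested probe of 8 cathepsin genes on each array, with cKO on the left and Control on the right of each panel. Symbols mark replicates 1 to 3, the horizontal line is the group mean and the bar beside it is ± 1 SD (n = 3). All panels span the same log2 range but start at different values. Ctsh shows the widest separation, with cKO from 8.54 to 10.13 and Control from 5.79 to 7.01.

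Ctsz encodes a carboxypeptidase that also carries an integrin-binding motif in its propeptide. Probe ILMN_2666007 read 9.38, 8.22 and 7.81 in cKO, against 6.90, 7.62 and 5.77 in Control. The groups did not overlap, but the lowest cKO array was only 0.18 above the highest Control array. The difference was 1.70 ± 0.58 (SE), or 3.26-fold with a 95% confidence interval of 1.28 to 8.32 (adjusted p 0.650). Its other probe, ILMN_2839569, lay within 0.39 log2 units of it on every array and gave 1.53 ± 0.52 (adjusted p 0.649). Much of the Ctsz difference lay in 2 arrays, since cKO replicate 1 was the highest and Control replicate 3 the lowest of the 6, and without both arrays it was 0.75 and 0.69 at these probes.

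Ctsk encodes cathepsin K, the collagen-degrading protease of osteoclasts. Its probe read 7.07, 6.33 and 6.08 in cKO, against 5.53, 5.59 and 4.85 in Control, and was detected on all 6 arrays. The groups were 0.49 apart at their nearest values. The difference was 1.17 ± 0.36 (SE), or 2.25-fold with a 95% confidence interval of 1.25 to 4.07, and an adjusted p of 0.571 in limma. It was 0.65 without cKO replicate 1 and Control replicate 3, 0.65 after normexp with an offset of 50, and 0.79 without background correction.

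Ctsb encodes cathepsin B, a broadly expressed cysteine protease with both endopeptidase and carboxypeptidase activity. At probe ILMN_2683316 it read 13.53, 13.00 and 12.97 in cKO, against 12.45, 12.80 and 12.69 in Control. The separation was small, at 0.17 between the nearest arrays. The difference was 0.52 ± 0.28 (SE), or 1.43-fold with a 95% confidence interval of 0.914 to 2.24, which includes no change (adjusted p 0.766), and was 0.34 without cKO replicate 1. A further Ctsb probe was not detected on any array.

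The other 4 tested cathepsins overlapped between the groups. Ctsl, which encodes the cathepsin that rat Sertoli cells secrete, read 6.94, 7.59 and 7.30 in cKO, against 6.94, 7.21 and 8.85 in Control. Control replicate 3 stood above the remaining 5 arrays, which lay between 6.94 and 7.59. The difference was -0.39 ± 0.52 (SE) with all arrays (adjusted p 0.819) and 0.20 without Control replicate 3, so 1 array set its sign. The 95% confidence interval of the difference, -1.60 to 0.81, leaves room for a change of either direction.

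Ctsd encodes cathepsin D, the aspartic protease of the family. It read 6.89, 7.05 and 6.70 in cKO, against 6.63, 7.12 and 5.99 in Control, a difference of 0.30 ± 0.34 (SE) with a 95% confidence interval of -0.50 to 1.10 (adjusted p 0.799). The lowest value was again that of Control replicate 3, and without this array the difference was 0.0048. Ctsa encodes protective protein cathepsin A, a serine carboxypeptidase that also stabilises lysosomal beta-galactosidase and neuraminidase. Its probe ILMN_2669714 read 7.29, 6.25 and 6.53 in cKO, against 6.26, 6.06 and 4.73 in Control, where replicate 3 was not above background. The difference was 1.01 ± 0.48 (SE; adjusted p 0.766), 0.53 without Control replicate 3, and 0.23 without both this array and cKO replicate 1. The other tested Ctsa probe, ILMN_3120827, was detected on 1 cKO and 2 Control arrays and gave -0.20 ± 0.51, so the Ctsa probes did not give the same direction.

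Ctss encodes cathepsin S, which processes the invariant chain in antigen-presenting cells, and its probe was near background. It was detected on 1 cKO and 2 Control arrays and read 4.92, 4.68 and 4.96 in cKO, against 5.22, 4.54 and 4.89 in Control. The groups overlapped, and the difference was -0.034 ± 0.28 (SE; adjusted p 0.975). Ctsc encodes dipeptidyl peptidase I, which activates the granule proteases of leukocytes. Of its 3 probes, ILMN_3008858 was detected on 1 array, cKO replicate 3, at 4.96, and the others on none, so no level of Ctsc can be compared here. The 4 remaining untested probes were 1 of Ctsb and 3 of Ctsa.

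**Figure D2:**
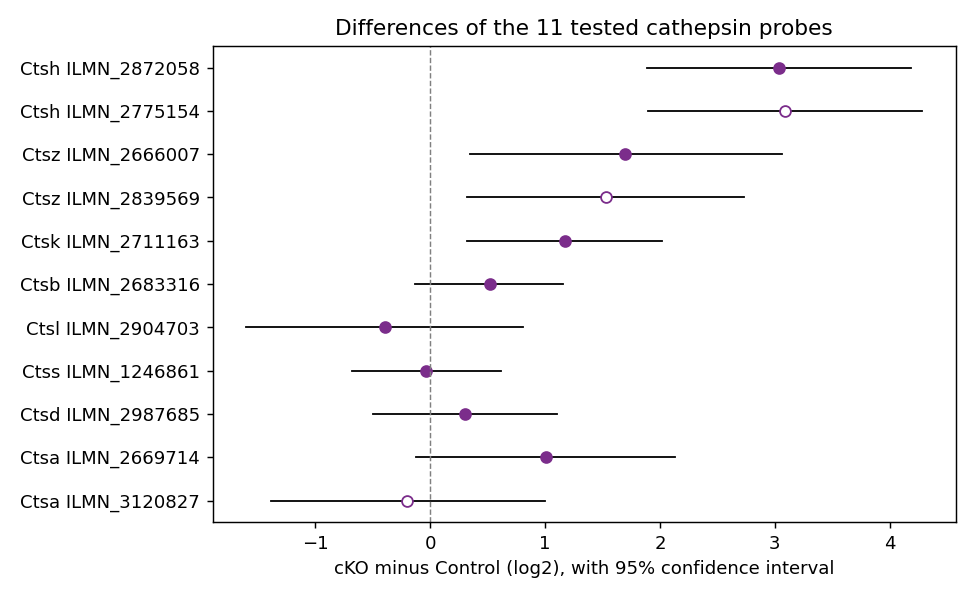
Difference of each of the 11 tested cathepsin probes, cKO minus Control on the log2 scale, with its 95% confidence interval from limma. Filled points are the brightest tested probe of a gene and open points its other probe. The intervals of both Ctsh probes, both Ctsz probes and the Ctsk probe lie above 0, whereas those of Ctsb, Ctsl, Ctss, Ctsd and Ctsa include 0.

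Promoters of cathepsins that separated the groups were set beside promoters of others, with sequences from RefSeq on GRCm38.p6 that run from 250 bases before to 50 bases after a gene's start, 5′ to 3′ on the gene's strand. The table held 7 of the 9 genes, and Ctsh and Ctsb were not searched. Ctsz (chr2:174438990-174439289, minus strand) and Ctsk (chr3:95498960-95499259, plus strand) separated the groups, whereas Ctsd (chr7:142387778-142388077, minus strand) and Ctsa (chr2:164833523-164833822, plus strand) are shown because they hold the E-box core CACGTG, which lies within the element that the lysosomal gene regulator TFEB binds. Capitals mark each match to a searched motif.
Ctsz: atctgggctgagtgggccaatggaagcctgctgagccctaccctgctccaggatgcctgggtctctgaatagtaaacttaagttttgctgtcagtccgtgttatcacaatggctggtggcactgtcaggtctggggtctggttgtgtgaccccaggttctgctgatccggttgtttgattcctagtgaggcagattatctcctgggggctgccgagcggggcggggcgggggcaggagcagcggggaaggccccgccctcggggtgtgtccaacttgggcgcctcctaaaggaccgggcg
Ctsk: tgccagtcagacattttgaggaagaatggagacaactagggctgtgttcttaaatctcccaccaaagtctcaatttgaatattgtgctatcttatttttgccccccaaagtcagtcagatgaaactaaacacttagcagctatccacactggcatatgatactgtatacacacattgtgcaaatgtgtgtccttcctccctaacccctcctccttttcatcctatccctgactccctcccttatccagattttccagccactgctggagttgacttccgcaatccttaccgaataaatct
Ctsd: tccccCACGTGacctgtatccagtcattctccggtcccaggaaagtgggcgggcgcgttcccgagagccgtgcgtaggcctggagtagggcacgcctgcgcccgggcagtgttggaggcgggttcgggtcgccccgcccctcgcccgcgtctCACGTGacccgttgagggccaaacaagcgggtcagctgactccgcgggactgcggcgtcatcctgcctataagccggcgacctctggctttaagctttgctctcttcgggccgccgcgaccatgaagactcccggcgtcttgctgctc
Ctsa: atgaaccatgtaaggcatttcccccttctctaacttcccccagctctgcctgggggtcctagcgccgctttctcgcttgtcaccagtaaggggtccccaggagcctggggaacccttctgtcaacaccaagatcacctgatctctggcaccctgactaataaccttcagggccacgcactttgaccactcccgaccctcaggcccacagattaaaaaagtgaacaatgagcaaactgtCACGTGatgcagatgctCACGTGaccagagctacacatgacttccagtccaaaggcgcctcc

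CACGTG reads the same on both strands and occurred in 7.15% of the 32851 promoters in the table. Of the cathepsin genes, 3 had a promoter with it, Ctsa, Ctsd and Ctsl. Another Ctsa promoter in the table (chr2:164832622-164832921, plus strand) had no match to any searched motif. In Ctsd the matches began 245 and 98 bases before the start, in this Ctsa promoter 12 bases before it and at base 6 after it, and in Ctsl 236 bases before it. Searched on both strands, the E2F motif TTTNGCGC (1.38% of all promoters) and the AP-1 motif TGACTCA (5.2%) matched none of the promoters of these 7 genes. The interferon response core, GAAA followed after any 2 bases by another GAAA (3.44%), matched, of these 7 genes, Ctss alone, 21 bases before its start. The Ctsz and Ctsk windows printed above held none of these letters, and no match overlapped another motif. These matches describe the windows and say nothing of binding.

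None of the tested genes of the other lysosomal lists described next passed in limma, and the medians of these lists lay between -0.32 and 0.15. For their counts, 61.3% of all genes had a positive difference, and 9.56% were above and 4.33% below on every cKO array. Of 14 other cathepsin genes, 2 were tested and 10 were not detected on any array. Ctse, an intracellular aspartic protease outside the lysosome, differed by 0.27 ± 0.43 (SE). Ctsf, a cysteine cathepsin, differed by -0.15 ± 0.66, with 6.51, 8.24 and 9.34 in cKO replicates 1 to 3.

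Cathepsin inhibitors, chiefly the cystatins, were on the array for 18 of 20 listed genes, and 8 were tested, with 6 positive differences and a median of 0.15. Cstb, the intracellular inhibitor cystatin B, was the only one of them to separate the groups. It read 13.11, 12.63 and 12.46 in cKO, against 11.53, 12.18 and 11.89 in Control, a difference of 0.86 ± 0.30 (SE; adjusted p 0.676). Cstl1, Cst11 and Cst12, cystatin-like genes, differed by 0.57, 0.71 and -0.33. Cst3, the main secreted cystatin, stood at 13.17, 13.73 and 13.96 in cKO and 13.52, 14.25 and 14.15 in Control.

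Genes that sort enzymes to the lysosome were tested for 13 of 13, with a median difference of 0.14. The groups were separate for Gnptg, a subunit of the enzyme that makes the mannose 6-phosphate tag, at 0.50, and for the retromer subunit Vps29, at 0.26. The adaptors Gga2 and Gga3 differed by 0.81 and 0.37 with overlapping groups. The mannose 6-phosphate receptors Igf2r and M6pr differed by -0.28 ± 0.41 (SE) and -0.16 ± 0.30, with overlapping groups. Lysosomal membrane proteins (13 of 13 tested) had a median of 0.041. Scarb2, the receptor that carries glucocerebrosidase to the lysosome, differed by 1.12 ± 0.38 (SE; adjusted p 0.644) with separate groups, although its other probe gave -0.061. Lamp1, the abundant membrane glycoprotein, differed by 0.34, and the calcium channel Mcoln1 and the tetraspanin Tspan3 by -0.82 ± 0.69 and -2.07 ± 1.75, while the other Tspan3 probe gave 0.12.

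Of 39 listed lysosomal hydrolases and their activators, 31 were tested, with a median of 0.10. On every cKO array 5 were above and 4 below, beside 9.56% and 4.33% of all genes. Arsb, an arylsulfatase that acts on glycosaminoglycans, differed by 1.07 ± 0.35 (SE), and its other probe by 0.14. Glb1, the beta-galactosidase held in complex with cathepsin A, differed by 0.90 ± 0.35, and its other probes by 0.16 and 0.14. Prcp, a carboxypeptidase, differed by 1.05 ± 0.42, and Gm2a, the activator of ganglioside breakdown, by -0.80 ± 0.37. For the proton pump subunits (20 of 25 tested) the median was 0.06 and 1 gene separated the groups. Atp6v1c2, Tcirg1, Atp6v0b and Atp6v0e differed by 0.68, 0.73, 0.38 and -0.52. The lysosomal gene regulators Tfe3 and Tfeb differed by -0.47 ± 0.39 and -0.16 ± 0.42.

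**Figure D3:**
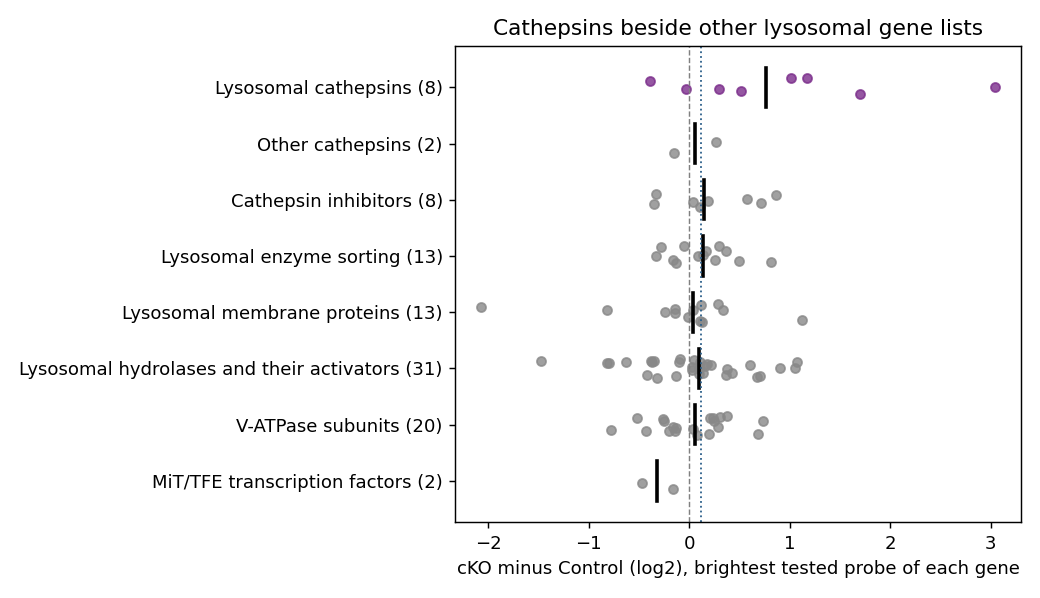
Difference of each tested gene, cKO minus Control on the log2 scale, at its brightest tested probe, for the lysosomal cathepsins and 7 other lists, with the number of genes tested in brackets. Black bars are list medians, the dotted line is the median of all genes tested (0.12) and the dashed line is 0. The cathepsins reach 3.04 at Ctsh with a median of 0.76, and the other lists have medians from -0.32 to 0.15.

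Macrophages also carry Ctsh, Ctsz and Ctsb, so their markers were set beside these genes. Of 25 listed macrophage and leukocyte markers 13 were tested, 12 with a positive difference and a median of 0.70, and 6 were above and 1 below on every cKO array. Of all genes tested, 61.3% had a positive difference, 9.56% were above and 4.33% below. None passed in limma, and the median was 0.39 without cKO replicate 1 and Control replicate 3. Of the listed genes, Ptprc, Itgam, Itgb2 and Tyrobp were not detected on any array. The 6 above on every cKO array were Cd74, H2-Aa, H2-Ab1, Laptm5, Adgre1 and Cx3cr1. The groups overlapped for Lyz1, Aif1, C1qb, Fcgr3, C1qa and Fcer1g. Adgre1 was detected on only 1 Control array, and Cx3cr1 averaged 5.83 in cKO and 5.31 in Control. The mean of the tested markers was 8.23, 7.84 and 7.79 in cKO replicates 1 to 3, against 7.41, 7.32 and 6.81 in Control. Their summed linear level overlapped, at 9677 to 10085 in cKO and 7665 to 10892 in Control. The brightest markers, Aif1 and Mrc1, weigh most in this sum, so it says little of the other markers. Cd74, the invariant chain, differed by 1.70 ± 0.31 (SE; adjusted p 0.143), and the class II genes H2-Aa and H2-Ab1 by 1.35 and 1.54. Mrc1, the macrophage mannose receptor, had the only negative difference, at -0.83.

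Markers of other testis cell types were set beside the cathepsins too, and none passed in limma. Of 8 Leydig cell markers 5 were tested, and their mean was 8.78, 7.67 and 7.88 in cKO, against 6.79, 7.15 and 7.31 in Control. Their median difference was 1.26, and 0.73 without cKO replicate 1. These means and medians include Star, which was detected on the cKO arrays alone. Over the 3 genes detected on all 6 arrays, which leaves out Star and Hsd3b6, the median was 1.26. Star, the steroidogenic carrier of cholesterol, did not rise above background on the Control arrays. It entered the test through the cKO arrays alone, so its p-value is not given. It was at least 3.11-fold higher in cKO, where "at least" sets the cKO mean against the lowest level of a detected probe on each Control array. The other tested Leydig genes, Insl3, Cyp17a1, Cyp11a1 and Hsd3b6, overlapped between groups and differed by 1.60, 1.26, 0.37 and -0.088. Peritubular myoid markers (4 of 6 tested), endothelial markers (6 of 8) and spermatogonia markers (7 of 8) had medians of 1.05, 0.93 and 0.68, and spermatocyte and spermatid markers 0.44 and 0.43. Without cKO replicate 1 and Control replicate 3 together, the first 3 of these medians were 0.58, 0.45 and 0.41. Without Control replicate 2, the spermatocyte and spermatid medians were 0.25 and 0.19. The spermatogonia median includes Ret, also detected on the cKO arrays alone, and was 0.68 over the 5 genes detected on all 6 arrays. Mature Sertoli markers had a median of -0.44, with 17 of 18 differences negative, whereas 61.3% of all genes had a positive one. Their means were 9.42, 10.27 and 10.53 in cKO replicates 1 to 3, against 10.53, 10.84 and 10.90 in Control. The part of these cell types in the cathepsin differences was not tested, and in bulk RNA more cells of a type and more transcript per cell cannot be told apart.

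**Figure D4:**
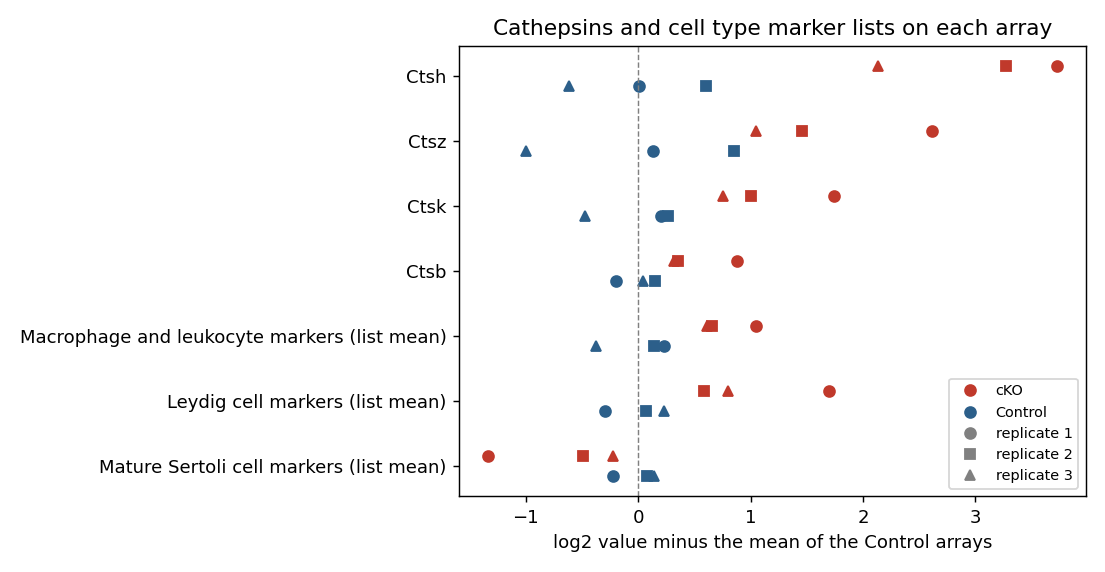
Values on each array minus the mean of the 3 Control arrays, on the log2 scale, for 4 cathepsins (brightest tested probe) and the means of 3 marker lists. Red symbols are cKO, drawn above the blue Control symbols, and shapes mark the replicate. cKO replicate 1 is the highest array for all 4 cathepsins and for the macrophage and Leydig lists, and the lowest for the mature Sertoli list. The Leydig list includes Star, which was detected on the cKO arrays alone.

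Some arrays were the highest or lowest for several cathepsins. cKO replicate 1 was the highest of the 6 arrays for 5 genes (Ctsa, Ctsb, Ctsh, Ctsk and Ctsz), and Control replicate 3 was the lowest for 5 (Ctsa, Ctsd, Ctsh, Ctsk and Ctsz). Control replicate 3 was instead the highest for Ctsl, and Control replicate 1 was the highest for Ctss and the lowest for Ctsb and Ctsl. cKO replicate 1 and Control replicate 3 are the arrays that stood apart over all probes. Without both, 5 of 8 genes were above on every cKO array (Ctsb, Ctsh, Ctsk, Ctsl and Ctsz), a state met by 13.2% of all genes in that smaller comparison, and the median difference was 0.36.

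The genes most like Ctsh over the 6 arrays, by Pearson correlation among 10440 genes whose brightest probe was detected on all of them, were Lxn, Dennd2c and Bcl2a1b. Their correlations were 0.997, 0.996 and 0.996, and 3.5% of the genes exceeded 0.9. All 6 arrays entered these correlations, so they include the difference between groups. Lxn, which encodes the carboxypeptidase inhibitor latexin, read 10.51, 10.19 and 9.75 in cKO and 8.92, 9.05 and 8.65 in Control, a difference of 1.28 ± 0.29 (SE; adjusted p 0.285). Dennd2c differed by 1.00 ± 0.28 (adjusted p 0.453). Bcl2a1b, a relative of BCL2 that protects from apoptosis, differed by 2.10 ± 0.39 (adjusted p 0.151), and its probe may also read the near-identical genes of its family.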

How the data were processed

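Per the labels, RNA of sorted Sertoli cells was amplified and biotinylated for Illumina arrays, and the submitters' processing notes name BeadStudio, with no version. Per the file headers, each deposited array table holds a mean intensity per probe on a linear scale, the SD over beads, the count of beads and a detection score. This deposited score is a fraction from 0 to 1 that grows with signal, and a probe counted as detected above 0.95. The values that the authors deposited for the whole series are on a log2 scale. Comparison with the scanner tables showed log2 intensity less each array's upper quartile and less the median of the probe across arrays. Their software was not given in the sources used here. This relation joined all 45281 probe IDs to scanner probe numbers, each within 0.000395 of its match, with the second nearest no closer than 0.00279.

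The neqc function of limma 3.58.1 (R 4.3.3) corrected background from the detection scores, added an offset of 16 and applied quantile normalisation. A probe entered the test if detected on 3 or more arrays. The model (lmFit, eBayes) held group alone, tests were two-sided, and p-values were adjusted by Benjamini-Hochberg across 21805 probes, with a threshold of 0.05. The fit was tested on simulated data with independent arrays. That test does not cover arrays that deviate together, as these did. Genes were named from the platform annotation, where 34885 probes had 1 symbol, 18 several and 10378 none. The number of arrays limits the precision.

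Same-numbered arrays deviated together (correlations of 0.262, 0.410 and 0.473 across tested probes), so the numbers were taken as pairing the arrays and used as a block in an alternative. The labels do not say what a number stands for. The other alternatives changed the background correction, the scaling, the filter on dim probes, the probe per gene, the array weights and the arrays included. The text names every cathepsin gene, up to 4 genes of each other list by smallest p, and the 3 genes most like Ctsh. Cst3, Igf2r, M6pr, Laptm5, Adgre1, Cx3cr1, Aif1 and Hsd3b6 were chosen after their values were seen. The remaining tested macrophage and leukocyte markers were named beside them. The cathepsins, the lists and the arrays that stood apart were chosen with earlier results of these data known.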

Additional observations from a re-analysis of the deposited data

How the results depend on the processing

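The tested probes of Ctsh, Ctsz, Ctsk and Ctsb averaged higher in cKO under each of the 14 to 16 alternatives that tested them, and the median over the cathepsin genes ran from 0.36 to 0.91. The count of cathepsin probes past the threshold was 0 and became 1 with 1 probe per gene and 2 with array weights (estimated gene by gene). Leaving out 1 array gave 0 to 1, the call coming without cKO replicate 3. Over all probes, 31 were higher in cKO, and 9 after normexp with an offset of 50, 13 with uncorrected background, 1 when dim probes were kept, 56 with 1 probe per gene, 6 without cKO replicate 1 and Control replicate 3, and 147 (with 2 lower) with array weights. Leaving out 1 array gave 0 to 15, with 0 without Control replicate 1, 2 or 3, 2 without cKO replicate 2, 8 without cKO replicate 1 and 15 without cKO replicate 3. With a replicate block, 0 probes passed in limma at a smallest adjusted p of 0.0529, while an unadjusted p under 0.05 held for 1975 higher and 1282 lower ones. The pairing changed no cathepsin call, with Ctsh at adjusted p 0.0907 and 0.150. Directions turned at Ctss, Ctsl, Ctsd and the dimmer Ctsa probe. Their main differences were -0.034, -0.39, 0.30 and -0.20. Ctss was 0.00095 with the deposited values and -0.20 to 0.13 when 1 array was left out. The dimmer Ctsa probe ran from -0.60 to 0.26 and Ctsl from -0.76 to 0.20 when 1 array was left out. Ctsl was also 0.37 without the arrays that stood apart and 0.14 with array weights. Ctsd was -0.00082 without the arrays that stood apart. The causes were not tested. Probes near background (Ctss, Ctsa and Ctsc, and Ctsk on Control replicate 3) limit what can be said of those genes.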

Other observations

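One Ctsa probe outside the comparison, ILMN_1213617, was detected on a single array. It read 4.47, 4.62 and 4.47 in cKO, against 4.37, 4.64 and 7.10 in Control, where replicate 3 was the detected one. The same array held the highest Ctsl value and the lowest value of the Ctsa probe ILMN_2669714.

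Genes beside Ctsh in GRCm38.p6 were looked at after its values were seen. Of the 5 protein-coding genes on each side, 6 in all were tested, with differences (cKO minus Control, log2) from -0.16 to 1.12 and none past the threshold in limma. Tbc1d2b, a Rab GTPase-activating protein, differed by 1.12 ± 0.33 (SE; adjusted p 0.504), the exchange factor Rasgrf1 by 0.84 ± 0.42 and the protease Adamts7 by 0.57 ± 0.29. Morf4l1, next to Ctsh on the other side from Rasgrf1, was at 13.49 in cKO and 13.59 in Control. Bcl2a1b, one of the genes most like Ctsh over the arrays, lies on the same chromosome with 5 protein-coding genes between them.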
